A study of Mus musculus with 3 samples.

Results

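The genes described here encode chromatin regulators of the SWI/SNF, ISWI, CHD and Polycomb families. They were 46 genes listed by symbol, out of 52636 gene IDs counted. The rule uses no measured value, but the members were chosen with earlier results of these data known. They comprised 15 SWI/SNF and ISWI genes, 9 CHD genes, 7 genes of Polycomb repressive complex 2 (PRC2) and 15 of Polycomb repressive complex 1 (PRC1). The series compares lymphomas that lack Cic, the gene of the transcriptional repressor capicua, with thymus of control littermates, and only the control thymus was analysed here. It comprised 3 libraries, called thymus 1, 2 and 3 after their replicate numbers, from normal thymus of C57BL/6 mice with the genotype Cic flox/flox + TAM. All 3 therefore carried floxed Cic alleles and had received tamoxifen, and the labels name no Cre driver for them, nor an age or sex. Total RNA was extracted with the AllPrep DNA/RNA kit and made into strand-specific poly(A) libraries with the TruSeq Stranded mRNA kit. There is 1 group, so no condition was compared: the levels, the balance between paralogues and the spread between thymi are described. No label ties a library to an animal, so the p-values speak only to the spread among these 3 libraries, part of which may be technical.

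SWI/SNF (BAF and PBAF) and ISWI complexes and the CHD proteins use ATP to slide, eject or space nucleosomes. PRC2 methylates lysine 27 of histone H3, and PRC1 ubiquitinates histone H2A and compacts chromatin, and both keep developmental genes silent. In the thymus, Smarca4 (Brg1), Chd4 (Mi-2 beta), Ezh2 and Bmi1 are each known to be needed for T cell precursors to pass through normal development, and the PRC2 genes act as tumour suppressors in T cell leukaemia.

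Depth was 25408442 to 30414788 gene-assigned reads per library, which sets 3 reads at 0.0986 to 0.122 CPM (read counts scaled to library size), and all 46 members were among the 16548 genes that passed the filter on low counts. Of the members, 45 were at 1 CPM or more in every thymus, 41 at 10 CPM or more and 22 at 100 CPM or more. All 10 markers of double-positive thymocytes, the most numerous cells of the thymus, reached 10 CPM in each of the 3 libraries. Thymus is a mixture of cells, and fewer cells of a type and less RNA per cell cannot be told apart in these values. Levels between genes are compared below as TMM-scaled CPM per kilobase of exon (TMM is a scaling that equalises most genes between libraries), with the exons of all transcripts of a gene merged.

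Promoter sequences are shown first for 5 members that mark the extremes of the data: the ATPases Chd4 and Chd5, whose levels lay furthest apart among the paralogue pairs, the PRC2 genes Ezh2 and Suz12, which were among the 5 highest members, and Smarca2, whose window held the only match to the octamer that capicua binds. Each is the RefSeq window from 250 bases before to 50 bases after a transcript start, 5′ to 3′ on the gene's strand, in build GRCm38.p6. In the first pair, CpG dinucleotides are in capitals: Chd4 (chr6:125095731-125096030, plus strand) holds 17 and Chd5 (chr4:152338401-152338700, plus strand) holds 32. A second Chd4 window (chr6:125095913-125096212), not shown, holds 29, so the contrast depends on the window shown.
Chd4: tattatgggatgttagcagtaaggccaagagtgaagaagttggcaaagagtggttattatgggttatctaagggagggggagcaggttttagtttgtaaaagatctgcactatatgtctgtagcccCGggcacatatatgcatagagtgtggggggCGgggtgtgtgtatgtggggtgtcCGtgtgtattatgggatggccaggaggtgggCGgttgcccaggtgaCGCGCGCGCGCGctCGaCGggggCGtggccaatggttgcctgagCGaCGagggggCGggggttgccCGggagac
Chd5: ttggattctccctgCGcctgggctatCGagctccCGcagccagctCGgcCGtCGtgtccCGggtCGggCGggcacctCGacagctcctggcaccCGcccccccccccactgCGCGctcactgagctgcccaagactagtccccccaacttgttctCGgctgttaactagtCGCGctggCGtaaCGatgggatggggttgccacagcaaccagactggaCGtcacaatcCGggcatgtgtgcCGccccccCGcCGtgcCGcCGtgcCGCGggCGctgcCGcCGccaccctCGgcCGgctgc
In the other windows, a match to E2F or capicua letters is in capitals, counted from the start site. In Ezh2 (chr6:47594981-47595280, minus strand) it is the E2F match TTTGGCGC at bases 3 to 10, and 3 CCAAT boxes lie before it in lower case. In Suz12 (chr11:79992856-79993155, plus strand) it is the E2F match TTTCCCGC at -219 to -212, with a CCAAT box at -61 to -57. In Smarca2 (chr19:26604910-26605209, plus strand) it is the capicua match TCAATGAA at -28 to -21.
Ezh2: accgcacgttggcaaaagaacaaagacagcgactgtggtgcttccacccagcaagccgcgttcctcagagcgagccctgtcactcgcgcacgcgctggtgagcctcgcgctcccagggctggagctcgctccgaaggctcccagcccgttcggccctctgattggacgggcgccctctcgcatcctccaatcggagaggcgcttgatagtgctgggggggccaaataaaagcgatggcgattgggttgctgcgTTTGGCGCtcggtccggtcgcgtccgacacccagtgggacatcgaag
Suz12: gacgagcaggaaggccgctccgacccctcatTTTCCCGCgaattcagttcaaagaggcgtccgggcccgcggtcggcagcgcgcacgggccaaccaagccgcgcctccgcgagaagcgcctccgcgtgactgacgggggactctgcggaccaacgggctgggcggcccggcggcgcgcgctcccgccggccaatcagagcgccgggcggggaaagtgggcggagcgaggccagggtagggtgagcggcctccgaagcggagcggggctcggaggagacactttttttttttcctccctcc
Smarca2: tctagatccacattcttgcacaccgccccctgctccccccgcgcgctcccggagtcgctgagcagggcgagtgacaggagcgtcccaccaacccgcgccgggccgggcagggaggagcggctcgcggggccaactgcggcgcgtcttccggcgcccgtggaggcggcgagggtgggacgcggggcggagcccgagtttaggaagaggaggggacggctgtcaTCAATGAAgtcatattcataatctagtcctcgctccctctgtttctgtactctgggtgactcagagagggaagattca

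RefSeq windows were found for 38 of the 46 members, 48 windows in all, because some genes have several starts. CpG dinucleotides were dense in them. The median ratio of observed to expected CpG was 0.850, beside 0.384 over all 32851 promoter windows. A ratio of 0.6 was reached by 40 of 48 windows (83.3%), beside 35.8% of all. The set of all windows was not filtered on expression, while every member passed the filter on low counts. Among the 33 windows within 500 bases of the gene's outermost GENCODE start, 31 reached 0.6, and the exceptions were Phc1 and Smarca1, the ISWI ATPase with the third lowest level of the members. Dense CpG was found at both extremes of level. The Chd5 windows had ratios of 0.877 and 0.884, the Chd4 window shown above 0.875 and the other Chd4 window 0.956. The windows of Smarcd2 (ratio 0.177) and Smarcd3 (ratio 0.959) lie 5340 and 22409 bases inside their GENCODE genes, so they describe an internal start and not the outermost one. No window was given for Chd1, Chd2, Pcgf1, Chd7, Cbx2, Smarce1, Arid2 and Chd3.

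**Figure D1:**
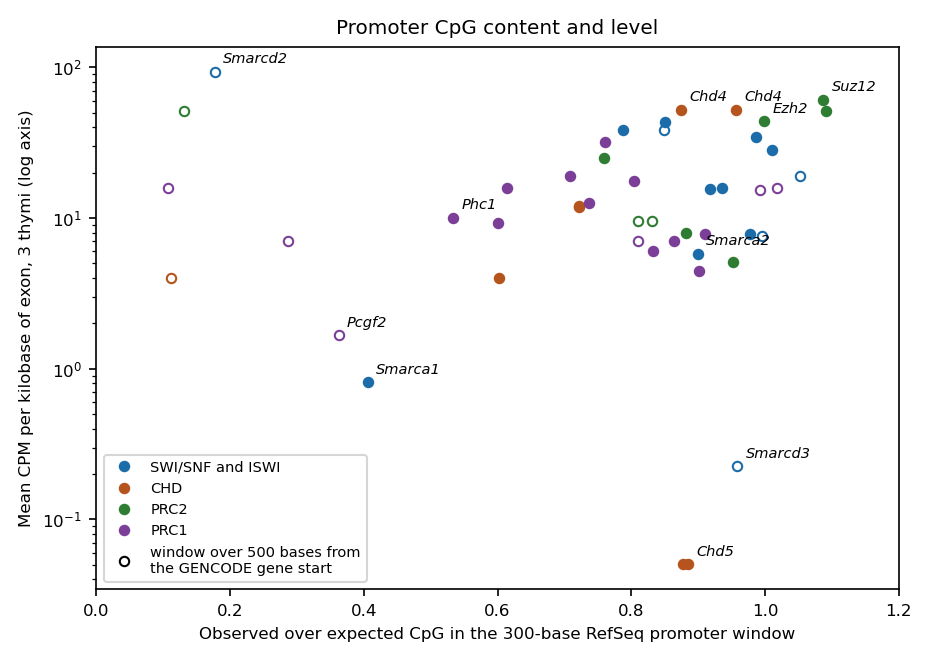
Ratio of observed to expected CpG in each 300-base RefSeq promoter window (x axis) against the gene's mean level in CPM per kilobase of exon over 3 thymi (y axis, log scale). Points are 48 windows of 38 members coloured by family, open where the window lies over 500 bases from the GENCODE gene start. Chd4 and Chd5 have similar ratios and levels of 52.2 and 0.0503.

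Motifs were searched on both strands as fixed letters. E2F letters (TTTCCCGC, TTTCGCGC, TTTGGCGC or TTTGCCGC) were in 5 member windows (10.4%), beside 2.27% of all promoters: those of Ezh2, Suz12, Phf19, Smarcd1 and an internal start of Arid1a. The YY1 letters AAGATGGC were in 3 windows (6.25%), of Phc3, Phf19 and Smarcd1, beside 2.75% of all. A CCAAT box was in 33.3% of member windows and 37.4% of all, and TATAAA in 4.17% and 13.6%. The capicua octamer (TGAATGAA or TCAATGAA) was in 1 window (2.08%), beside 2.03% of all. No matches of these motifs overlapped one another in the member windows. The set of all promoters was not matched to the members for CpG or expression. Each E2F word holds a CG, so windows dense in CpG can match it more often whatever the gene. A match is a description of letters, not of binding.

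Among the SWI/SNF catalytic ATPases, Smarca4 (Brg1) was the main transcript. Smarca4 stood at 43.3, 47.0 and 39.5 CPM per kilobase in thymus 1, 2 and 3, or 43.3 ± 3.77 (SD, n = 3). Smarca2 (Brm), its paralogue, stood at 5.68, 6.44 and 5.25. All 3 libraries placed Smarca4 above Smarca2 with no overlap, at a ratio of 7.48 ± 0.165 (SD, n = 3), so Smarca4 made up 88.2% ± 0.231 of the ATPase signal. The size of that ratio depended on the length used: it was 3.15 per kilobase of the longest transcript and 3.36 per kilobase of coding sequence.

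The core subunits, which hold the SWI/SNF module together, were led by Smarcd2 (Baf60b), the highest of the 46 members. Smarcd2 stood at 92.1, 92.3 and 95.8, a level that varied little between thymi. Its paralogue Smarcd1 (Baf60a) stood at 15.9, 16.8 and 14.2, so that Smarcd1 over Smarcd2 was 0.168 ± 0.0173 (SD, n = 3). Smarcd3 (Baf60c), the paralogue known from heart and muscle, stood at 0.199, 0.273 and 0.206, and Smarcd1 was 70.2 ± 9.23 (SD, n = 3) times as high. The order Smarcd2, Smarcd1, Smarcd3 held in every thymus without overlap. Of the paired scaffold subunits, Smarcc1 (Baf155) stood at 19.4, 19.8 and 17.4 and was below its partner in each library. Smarcc2 (Baf170) stood at 34.0, 38.3 and 31.7, and Smarcc1 over Smarcc2 was 0.546 ± 0.0274 (SD, n = 3), or 0.846 per kilobase of coding sequence. Smarcb1 (Snf5), a tumour suppressor of rhabdoid tumours, stood at 7.73, 8.55 and 7.21. Smarce1 (Baf57), an HMG-box subunit known for its part in silencing Cd4 in early thymocytes, stood at 14.7, 12.6 and 14.2, with thymus 2 the lowest.

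The subtype subunits set apart BAF, which carries Arid1a or Arid1b, from PBAF, which carries Arid2 and the polybromo protein Pbrm1. Arid1a stood at 38.3, 39.2 and 37.3 and Arid1b at 7.45, 8.32 and 6.89, a ratio of 5.09 ± 0.356 (SD, n = 3) with no overlap. Arid2 stood at 29.1, 29.2 and 29.0, and its coefficient of variation over the 3 thymi (CV, the SD as a percentage of the mean) was 0.465%, the smallest of the 46 members. Pbrm1 stood at 29.2, 28.4 and 27.5, close to Arid2 in every library. Arid1a was higher than Arid2 in all 3, by 1.31 ± 0.0264 (SD, n = 3) times.

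ISWI complexes space nucleosomes with either of 2 ATPases. Smarca5 (Snf2h) stood at 15.5, 14.1 and 17.8, highest in thymus 3. Smarca1 (Snf2l), best known from neurons, stood at 0.994, 0.591 and 0.869, the third lowest level of the members. Their ratio was 19.9 ± 4.14 (SD, n = 3), with no overlap between the genes. For Smarca5, 28.2% of its 50-base stretches were also found in transcripts of other genes, mainly the pseudogene Gm13135, so its count is uncertain. Reads that match several places are not assigned by the counting, and with such stretches taken out of the exon length the ratio was 27.8.

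**Figure D2:**
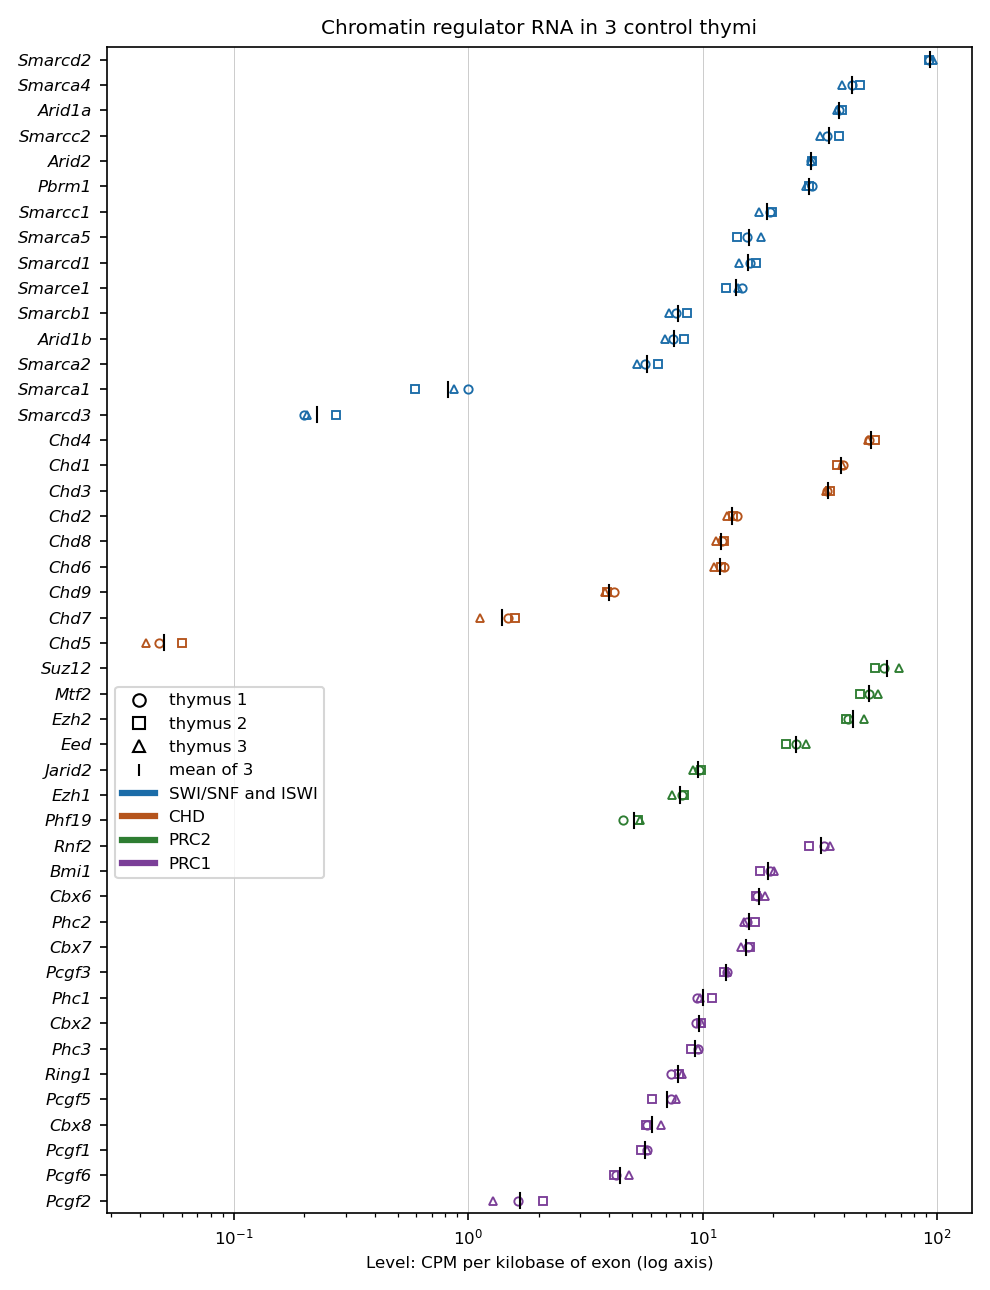
Level of each of the 46 members in each thymus, in CPM per kilobase of exon on a log axis, grouped by family. Each point is 1 library. Smarcd2, Suz12, Chd4, Mtf2 and Ezh2 are the 5 highest means and Chd5, Smarcd3 and Smarca1 the 3 lowest.

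The CHD family falls into 3 subfamilies by domain structure. In the first, Chd1, which binds methylated lysine 4 of histone H3, stood at 39.8, 37.3 and 39.5. Chd2 stood at 14.1, 13.5 and 12.7, giving Chd1 over Chd2 of 2.90 ± 0.180 (SD, n = 3), or 1.89 per kilobase of coding sequence. The Chd2 count is uncertain, because 18.4% of its exon bases overlap 1810026B05Rik on the same strand. In the second subfamily are the ATPases of the NuRD complex, which joins nucleosome remodelling to histone deacetylation. Chd4 stood at 51.4, 54.6 and 50.8 and Chd3 at 34.1, 35.0 and 33.7, and Chd4 was higher in every library by 1.52 ± 0.0303 (SD, n = 3) times. Chd5, whose expression is known mainly from brain and testis, stood at 0.0480, 0.0605 and 0.0423 and was the only member under 1 CPM in every thymus. Of 6 neuron markers, 4 were likewise under 1 CPM in all 3 libraries. The others were Syt1, at 6.54, 7.60 and 5.31 CPM, and Tubb3, at 3.88, 4.88 and 5.11 CPM. On the log scale of the plot of levels, Chd5 lies apart from all other members, and Chd4 was 1057 ± 149 (SD, n = 3) times higher.

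In the third CHD subfamily, Chd8 and Chd6 stood at similar levels and Chd7 was the lowest. Chd8, a binder of beta-catenin linked to autism, stood at 12.2, 12.4 and 11.4, and Chd6 stood at 12.4, 12.0 and 11.2. The ranges of these 2 genes overlapped. Chd9 stood at 4.19, 3.90 and 3.82. Chd7, the gene of CHARGE syndrome, stood at 1.48, 1.59 and 1.12, lowest in thymus 3, and Chd8 over Chd7 was 8.74 ± 1.26 (SD, n = 3).

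The core of PRC2 was abundant. Ezh2, the methyltransferase of dividing cells, stood at 41.8, 41.0 and 48.9, highest in thymus 3. Ezh1, the paralogue that predominates in resting tissues, stood at 8.19, 8.33 and 7.42, lowest in thymus 3. Ezh2 exceeded Ezh1 by 5.54 ± 0.917 (SD, n = 3) times with no overlap and held 84.5% ± 2.02 of their summed signal. Suz12, the zinc finger subunit that the enzyme needs to be stable, stood at 59.6, 54.4 and 68.8, or 61.0 ± 7.30 (SD, n = 3). Eed, which reads methylated lysine 27, stood at 24.9, 22.7 and 27.6. Both were highest in thymus 3 and lowest in thymus 2.

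Among the 3 accessory PRC2 subunits on the member list, which guide the complex to its targets, Mtf2 (Pcl2) was by far the highest. Mtf2 stood at 51.3, 46.9 and 56.2 and Phf19 (Pcl3) at 4.57, 5.28 and 5.41, a ratio of 10.2 ± 1.19 (SD, n = 3). Jarid2 stood at 9.64, 9.82 and 9.12. Mtf2 made up 77.8% ± 1.97 of the signal of these 3 genes, Jarid2 14.5% ± 1.49 and Phf19 7.72% ± 0.772 (SD, n = 3 each). The shares leave out accessory subunits that are not members. Of those, Phf1 had a mean of 24.0 CPM per kilobase and Aebp2 16.8, between Mtf2 and Jarid2.

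PRC1 is built on a RING ubiquitin ligase, 1 of several PCGF proteins and, in its canonical forms, a CBX reader of methylated histone and a PHC protein. Of the ligases, Rnf2 (Ring1b) stood at 33.0, 28.5 and 34.8 and Ring1 (Ring1a) at 7.33, 7.94 and 8.21. Rnf2 was higher in every library, by 4.11 ± 0.473 (SD, n = 3) times, or 6.32 per kilobase of coding sequence.

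Of the 6 PCGF genes, which set the type of PRC1, Bmi1 (Pcgf4) was the highest per kilobase of exon, at 19.3, 17.6 and 20.2. Its closest paralogue Pcgf2 (Mel18) stood at 1.63, 2.08 and 1.28, and the ratio was 12.0 ± 3.67 (SD, n = 3), with thymus 2 the highest in Pcgf2 and the lowest in Bmi1. Pcgf3 stood at 12.7, 12.3 and 12.8. Pcgf5 stood at 7.30, 6.10 and 7.72 and was below Pcgf3 in each library, at a ratio of 0.559 ± 0.0568 (SD, n = 3), or 0.884 per kilobase of the longest transcript. Pcgf1, of the variant complex with Bcor and Kdm2b, stood at 5.82, 5.44 and 5.78. Pcgf6, of the variant complex with Max and Mga, stood at 4.28, 4.17 and 4.85. In Bmi1, 16.7% of 50-base stretches also occur in transcripts of another gene, mainly Gm5946, and Pcgf1 shared 15.3%, with Gm8930. Pcgf3 and Pcgf5 have long untranslated regions, and the order of this group depended on the length used. Per kilobase of coding sequence, Pcgf3 held 41.7% of the group's signal, Pcgf5 29.0% and Bmi1 19.5%, beside 25.0%, 13.9% and 37.7% per kilobase of all exons.

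The CBX readers were led by Cbx6 and Cbx7. Cbx6 stood at 17.1, 16.9 and 18.4. Cbx7 stood at 15.5, 15.9 and 14.6. Cbx2 stood at 9.37, 9.80 and 9.86 and Cbx8 at 5.80, 5.73 and 6.64, and neither overlapped with Cbx7. Cbx7 over Cbx2 was 1.59 ± 0.0943 (SD, n = 3), and 5.003 per kilobase of coding sequence. Cbx7 over Cbx8 was 2.55 ± 0.306 (SD, n = 3), and 6.50 per kilobase of coding sequence.

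PHC proteins join PRC1 units through their SAM domains. Phc2 stood at 15.4, 16.7 and 15.1, above the others in every thymus per kilobase of all exons. Per kilobase of coding sequence Phc3 was the higher, at 55.4 beside 43.6 for Phc2. Phc1 stood at 9.44, 10.9 and 9.73 and Phc3 at 9.53, 8.90 and 9.52, and their ranges overlapped. Phc1 over Phc2 was 0.638 ± 0.0231 (SD, n = 3), and 0.402 per kilobase of coding sequence. Phc1 over Phc3 was 1.08 ± 0.129 (SD, n = 3), at 0.990, 1.23 and 1.02 in thymus 1, 2 and 3. The direction between Phc1 and Phc3 also turned with the length used: the ratio was 0.852 per kilobase of the longest transcript and 0.318 per kilobase of coding sequence.

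**Figure D3:**
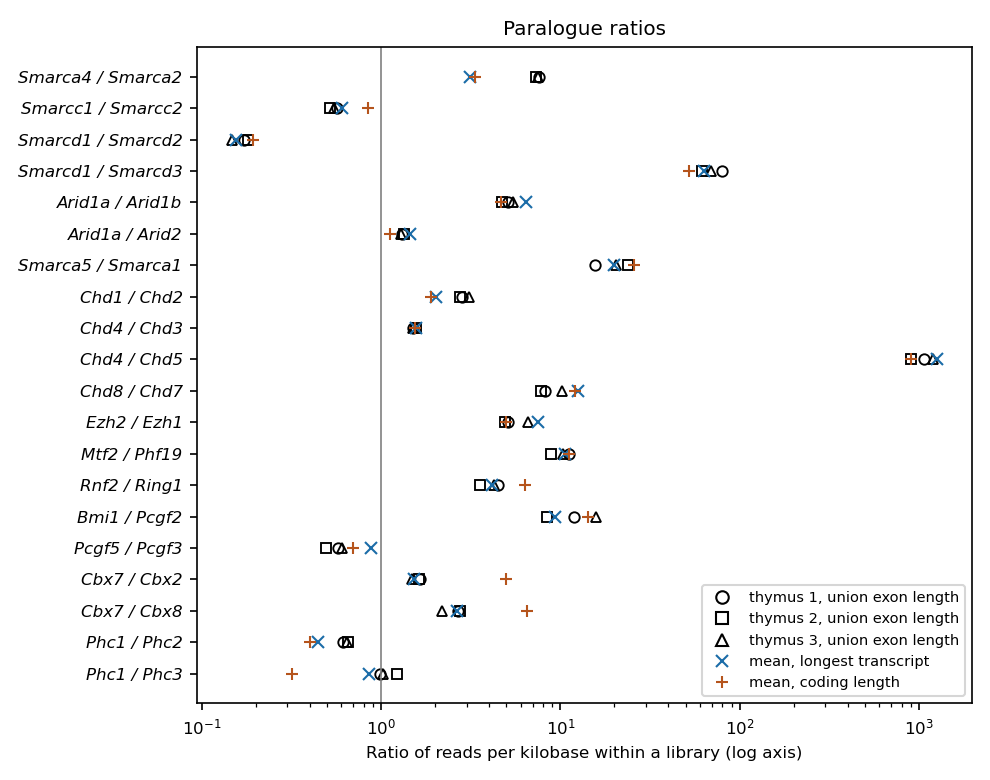
Ratio of the levels of 20 paralogue pairs (first-named gene over second) in each thymus, in CPM per kilobase of exon, on a log axis with a line at 1. Points are the 3 libraries. In 15 pairs the first gene is higher in all 3 thymi, and the pair of Phc1 and Phc3 straddles 1.

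Set beside each other, the members were mostly well expressed. Of the 46, 39 lay above the median level of all 16548 tested genes and 10 above the 90th percentile. The 5 highest were Smarcd2, Suz12, Chd4, Mtf2 and Ezh2, and the same 5 genes led per kilobase of the longest transcript. Per kilobase of coding sequence, Smarcd2 led, followed by Pcgf3, Mtf2, Cbx6 and Suz12. In the 20 pairs, the first-named gene was higher in all 3 libraries in 15. That count depends on which gene of a pair is named first, and some genes are in several pairs. An exact sign-flip test over 3 libraries cannot go below p = 0.25, and none was run.

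The 46 genes varied little between the 3 thymi. Their median CV was 7.34%, beside 9.06% over all tested genes, and 31 of 46 lay below that value, in a set more abundant than most genes. In 44 members the highest library was less than 1.5 times the lowest. The exceptions were Smarca1, whose highest library was 1.68 times its lowest, and Pcgf2, at 1.63 times. Both had low levels, with mean CPM of 5.003 and 5.86. CVs over 15% were also found for Chd5 (18.5%), Smarcd3 (18.1%) and Chd7 (17.3%).

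No member was called as varying between thymi more than genes of its abundance. The test asked whether a gene's quasi-dispersion in edgeR exceeded the trend over all genes, and it called 0 of 46 members, beside 10 of 16548 genes (0.0604%). At an unadjusted p under 0.05 it found 0 members and 731 genes. The lowest unadjusted p of a member in edgeR was 0.0904, for Chd7, with an adjusted p of 0.984. The negative binomial goodness of fit test called 0 members and 122 genes, and DESeq2 marked 0 members and 81 genes as dispersion outliers. With 3 libraries a change in 1 of them is often missed. On simulated data for the same 16548 genes, the edgeR test recovered 30 of 67 genes changed 2-fold and 64 of 67 changed 4-fold. The simulated counts followed the dispersion trend exactly, without the spread of real genes around it. Recovery in these libraries may therefore be lower.

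Most members differed between thymi by more than the sampling of reads. By edgeR's goodness of fit test at a dispersion of 0, 37 of 46 members were called, beside 43.4% of all tested genes. The members are abundant, and abundant genes are called more often: among genes with a mean of 1000 to 10000 reads, 29 of 34 members were called, beside 67.4% of all genes of that range. Among those with 100 to 1000 reads, 6 of 8 members were called, beside 40.7%. The 9 that were not called were Smarcd3, Arid2, Chd3, Chd5, Jarid2, Ring1, Pcgf1, Pcgf3 and Cbx2. The smallest adjusted p in edgeR's test was that of Suz12, 1.83e-48, for a highest library 1.26 times the lowest, and among the called members the smallest spread was that of Smarcd2, with an adjusted p of 0.0333 and a ratio of 1.04. Leaving out thymus 1 gave 35 calls, and leaving out thymus 2 or thymus 3 gave 21 in either case, beside 39.7%, 26.2% and 22.3% of all genes.

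The median shifts between thymi differed in sign between the families. On the log2 scale, each member's deviation from its own mean over the 3 libraries was taken. The median deviation of the 7 PRC2 genes came to 0.00, -0.09 and 0.13 in thymus 1, 2 and 3. The 15 SWI/SNF and ISWI genes went the other way, with medians of 0.00, 0.07 and -0.11. The 9 CHD genes had 0.03, 0.03 and -0.07, and the 15 PRC1 genes 0.00, -0.05 and 0.03. Over all tested genes the medians were 0.00, 0.00 and -0.01. Thymus 1, 2 and 3 are 1 library each, so none of these differences was tested.

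By gene, Ezh2, Eed, Suz12, Mtf2 and Phf19 were highest in thymus 3, while Ezh1 and Jarid2 were highest in thymus 2 and lowest in thymus 3. Of the SWI/SNF and ISWI genes, 10 of 15 were highest in thymus 2 and 10 were lowest in thymus 3, and Smarca5 was among the exceptions, with deviations of -0.02, -0.16 and 0.18. Of the CHD genes, 8 of 9 were lowest in thymus 3, and the exception was Chd1. Of the PRC1 genes, 9 of 15 were highest in thymus 3, among them Rnf2 and Bmi1, and 9 were lowest in thymus 2. Of all tested genes, 38.0% were highest in thymus 2 and 37.9% in thymus 3, and 36.0% were lowest in thymus 2 and 39.7% in thymus 3.

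**Figure D4:**
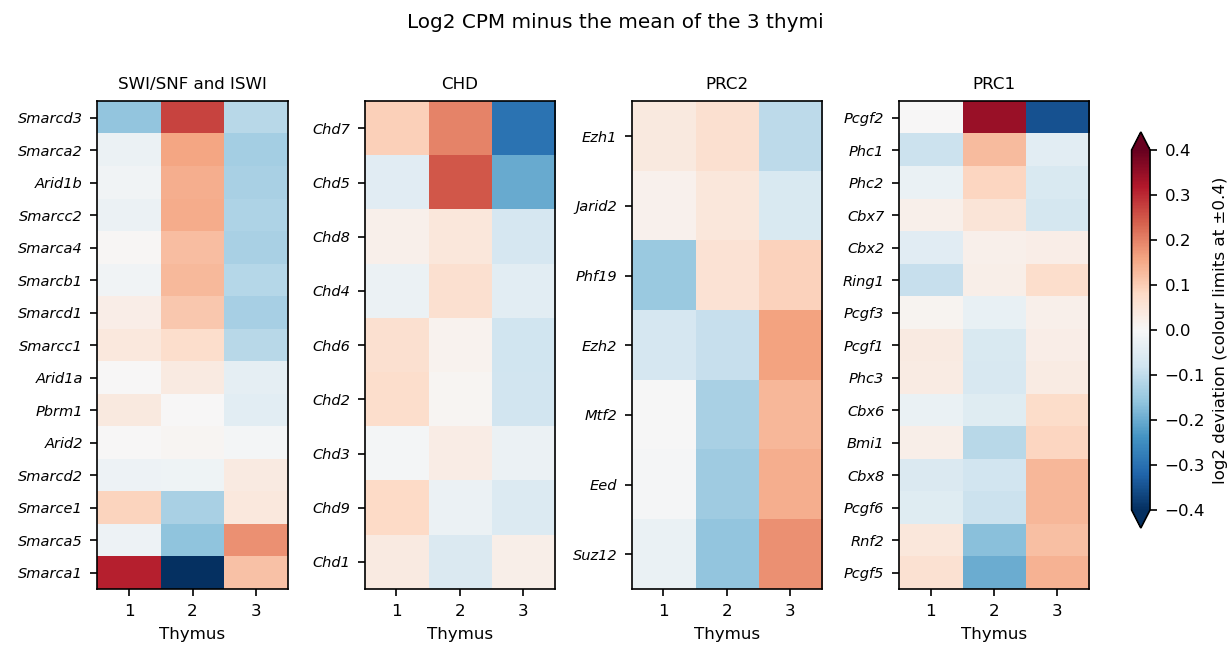
Log2 deviation of each member from its mean over the 3 thymi, as coloured cells, with 1 panel per family, genes as rows and the 3 thymi as columns. Red is above the gene's mean and blue below, with the colour scale ending at 0.4 on either side, which Smarca1 in thymus 2 exceeds. The median of the 7 PRC2 genes is 0.13 in thymus 3 and that of the 15 SWI/SNF and ISWI genes is -0.11.

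Several measures moved with these differences. The proliferation markers were highest in thymus 3 in 11 of 12 genes, with all 12 tested and none under 10 CPM, and summed to 3193, 3054 and 3788 CPM. GC content also moved with them: the rank correlation between GC and the deviation, across genes, which are not independent replicates, came to -0.16, 0.41 and -0.29 in the 3 libraries. Markers of macrophages and dendritic cells were lowest in thymus 3 in 8 of 8 genes, with sums of 1551, 1331 and 1254 CPM. For early progenitors and double-negative cells, 7 of 8 markers had their lowest value there, with sums of 215.8, 218.9 and 167.5 CPM, and those of mature single-positive thymocytes in 7 of 8, with 775.6, 768.1 and 715.1 CPM. B cell markers were lowest in thymus 3 in 6 of 6 genes, with sums of 1319, 1308 and 1269 CPM. Ighm made up most of these sums, at 1225, 1222 and 1197 CPM, so they say little of the other B cell markers. Endothelial markers were lowest there in 5 of 6, with sums of 123.3, 136.3 and 112.2 CPM, and those of thymic epithelium in 5 of 8, although their sums of 2046, 2075 and 2207 CPM were highest there. Prss16 and Ccl25, both highest in thymus 3, made up most of the epithelial sums. Double-positive thymocyte markers were lowest in thymus 2 in 6 of 10 genes, with sums of 13441, 12616.5 and 13755 CPM. Mesenchyme markers were highest in thymus 3 in 5 of 8 genes and lowest there in 3, with sums of 190.0, 162.3 and 197.9 CPM. Of 3 neuron markers tested, 2 were lowest in thymus 3. The part of any of these cells in the result was not tested. A correction for GC left the median difference of thymus 3 less thymus 2 at 0.13 for PRC2, from 0.25, and at -0.14 for SWI/SNF and ISWI, from -0.18. After it, Mtf2 had deviations of -0.02, 0.01 and 0.01. For the CHD genes the difference was -0.09, and the correction for GC left it at -0.08, with 1 of 9 genes higher in thymus 3. For PRC1 the same correction took the difference from 0.09 to 0.06. A correction for GC and exon length together took that of CHD to 0.00, with 5 of 9 genes then higher in thymus 3. Under it the difference was 0.15 for PRC2, -0.11 for SWI/SNF and ISWI and 0.08 for PRC1. Scaling by library totals moved the median difference of all genes from -0.01 to -0.09, and gave 0.17 for PRC2, -0.17 for CHD and -0.26 for SWI/SNF and ISWI. For PRC1 that scaling took the difference from 0.09 to 0.01 and the median in thymus 3 from 0.03 to -0.01, and 6 of 15 genes were then highest in thymus 3.

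Reads on the opposite strand were few for most members and dominant for 1. In 40 of 46 members under 1% of the reads at the locus were on the other strand. Smarcd3 (minus strand, chr5:24590818-24624411, GRCm38) had 31, 41 and 26 reads on its own strand and 970, 936 and 911 on the other. Plus-strand genes, Chpf2 (chr5:24586741-24594556) and Mir671, lie over 48.2% of the Smarcd3 exon bases, and Chpf2 had 1687, 1629 and 1507 reads of its own. Cbx7 had 6.22% of its reads on the other strand, and Chd5, with few reads, had 16.3%. For 23 members no 50-base stretch was shared with another gene's transcripts. Smarce1 shared 15.01%, mainly with Gm8494, and Cbx6 4.94%.

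Other subunits and enzymes of the same pathways, taken from fixed lists, came to 59 tested genes. edgeR's quasi-likelihood test called 0 of them, with 1 at an unadjusted p under 0.05, the negative binomial fit called 0 and DESeq2 marked 0. The counts that follow are those past counting noise, beside 43.4% of all genes. That share rises with abundance: it was 40.7% at a mean of 100 to 1000 reads and 67.4% at 1000 to 10000. Of the other SWI/SNF subunits, 11 of 14 tested were called, and the most abundant were Actb (578 CPM per kilobase), the actin shared with the cytoskeleton, Brd7 (29.1), a PBAF subunit, and Actl6a (24.4), the actin-related subunit of dividing cells. Its neuronal paralogue Actl6b had 0 reads in all 3 libraries, below the level of 3 reads given above. Of the ISWI partners, 6 of 9 were called, and the most abundant tested were Baz2a (42.8), Pole3 (28.4) and Baz1b (22.9). Of the other NuRD subunits, 9 of 12 were called, and the most abundant tested were Mta2 (81.4), Mbd3 (70.9) and the histone-binding protein Rbbp7 (65.0). Of the other PRC2 subunits, 4 of 5 were called, and the most abundant tested were Phf1 (24.0), the third Polycomb-like protein beside Mtf2 and Phf19, then Aebp2 (16.8) and Lcor (4.53). Of the other PRC1 subunits, 5 of 13 were called, and the most abundant tested were Fbrs (37.8), Dcaf7 (30.9) and Mga (14.9). Of the enzymes that remove the Polycomb marks and their partners, 2 of 6 were called, and the most abundant tested were the deubiquitinase Bap1 (28.9), the demethylase Kdm6b (23.9) and Asxl1 (21.7), the partner of Bap1.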

How the data were processed

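RNA-seq counts of reads per gene for 3 control thymus libraries were used as the authors deposited them, in the reverse-strand column. Per the submitters' processing notes, reads were aligned with STAR 2.5.3a to GRCm38, and DESeq2 is listed with no version. Neither the annotation release nor any trimming is given in the sources used here. Summary lines that name no gene (unmapped, multimapping, ambiguous and without a feature) held 30.9% to 33.6% of the reads and were left out. Gene IDs were matched to GENCODE M21 (52489 of 52636). The members and the lists were chosen with earlier results of these data known.

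Counts were filtered with filterByExpr (minimum count 10, total 15), scaled by TMM and fitted in edgeR 4.0.16 (R 4.3.3, limma 3.58.1) with an intercept only. Each gene's quasi-dispersion was compared with the trended prior, one-sided, and a goodness of fit test at a dispersion of 0 was run, both with Benjamini-Hochberg adjustment at 0.05 over 16548 genes. DESeq2 1.42.0 was an alternative. Deviations used a prior count of 2. GC and length corrections used lowess with a span of 0.3. Both tests were tested on simulated data. Values in each library are given for every member, because members with a paralogue pair, under 1 CPM, among the 5 highest or called were to be named, and of each other pathway list the 3 most abundant genes are named. Levels per kilobase, shares and ratios are descriptions with no test. Alternatives were other strand columns, scalings, filters, lengths and leaving out each library. Motifs were searched in RefSeq promoter windows, and no protein sequences were used here.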

Additional observations from a re-analysis of the deposited data

Results flagged for a closer look

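Smarcd3, the SWI/SNF subunit with the second lowest level of the members, had 96.6% of the reads at its locus on the strand opposite to the gene, outside the counts used for the levels. The median over all genes was 0.186% and the 95th percentile 30.2%. Chpf2 and Mir671 overlap its exons on that strand.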

How the results depend on the processing

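The trend test in edgeR called 0 members under each alternative tried, among them leaving out each library, with 46 members tested except under the filter of 5 CPM, which left 43. The count past counting noise ranged from 21 to 35 with 1 library left out and stayed within 1.5 times the main count of 37 under the other alternatives. Scaling by library totals moved the median deviation of the members from 0.0167 to 0.0559 in thymus 2 and from -0.0297 to -0.0715 in thymus 3. Correction for GC and length reversed its sign in both, to -0.0125 and 0.0136. Under that correction 27 of 46 members were higher in thymus 3 than in thymus 2, beside 21 without it. The ratio of Phc1 to Phc3 fell below 1 per kilobase of the longest transcript (0.852), per kilobase of coding sequence (0.318) and without length scaling (0.327). The cause of the other changes was not tested, whereas these follow from the lengths used. Counting each of the 20 ratios under each of 8 settings, these 3 values reversed, 49 others moved by more than 1 SD and 108 did not. Counting each of the 46 levels under each of 6 settings, 15 values moved and 261 did not. Taking shared stretches out of the exon length, the levels under other settings and the deviations by family were chosen after seeing the data. No paired analysis was possible because there is 1 group. Depth limits Chd5 and Smarcd3, which had few reads.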

Other observations

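Markers of red blood cells and fat, which belong to no comparison of the members, differed between the libraries. The 6 erythroid markers, 5 of them tested, summed to 1025, 47.1 and 223.6 CPM in thymus 1, 2 and 3. The 6 adipocyte markers summed to 193.9, 279.2 and 200.3 CPM. Their part in the members' values was not tested.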
